A study of Mus musculus with 6 samples.

Results

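The cytosolic ribosomal protein genes of cultured mouse macrophages were compared between wild-type mice and mice deficient in Ahrr. They were chosen by symbol, as protein-coding genes named Rpl or Rps with a number, with the stalk proteins Rplp0 to Rplp2 and with Rpsa, and without the Rps6k kinases. The rule found 90 of 16111 genes in the deposited table. Of these, 77 encode subunits of the ribosome, 31 of the small and 46 of the large subunit. The other 13 are 7 paralogs (Rpl3l, Rpl7l1, Rpl22l1, Rpl36al, Rpl39l, Rps27l and Rps27rt), 5 genes with pseudogene-type symbols (Rpl9-ps1, Rpl9-ps6, Rpl10-ps3, Rpl13a-ps1 and Rpl36a-ps1) and Rps19bp1, which encodes a binding protein of Rps19 and is no ribosomal protein.

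The cytosolic ribosome translates the messenger RNAs (mRNAs) of the nuclear genome. Its small subunit reads the mRNA, its large subunit joins the amino acids, and each protein is needed in about the same number of copies, so the genes are usually expressed together and strongly. Their mRNAs are known for a terminal oligopyrimidine tract, a C at the start followed by a run of C and T (C and U in the RNA), through which the mTOR pathway controls their translation.

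The wild-type group (WT) and the Ahrr-deficient group (labelled Ahrr, and AhRR-/- in the protocol) each had 3 libraries, labelled mouse 1 to 3. Strain C57BL/6 RCC, age E13.5 (embryonic day) and fetal liver as the source were shared by both groups. In both, the cells were kept in culture for 5 weeks with 2% GM-CSF, a growth factor for myeloid cells, and the non-adherent cells were taken, so these are cells expanded in culture and not fresh liver macrophages. Ahrr encodes the repressor of the aryl hydrocarbon receptor, and the deleted part of the gene and fetal sex are not given in the sources used here. Whether each culture came from 1 fetus is not stated, and p-values measure the spread between these libraries.

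Library totals ran from 3556106 to 41668336 counts, and Ahrr replicate 1 was the shallowest. Levels below are scaled CPM, counts per 1000000 counts (CPM) of a library size corrected with edgeR's TMM factors, which lay between 0.904 and 1.04. In WT replicate 2 a ribosomal RNA gene, CT010467.1, took 5.28% of the counts, against at most 0.0679% in the other libraries. Ahrr itself stood at 4.60, 4.74 and 5.21 scaled CPM in WT and at 2.23, 2.47 and 1.18 in the Ahrr libraries, without overlap, and its fitted log2 change was -1.21 (SE 0.26, adjusted p = 0.0151 by edgeR). Transcript therefore remained in every Ahrr library. All 10 macrophage markers listed were found, with a summed level of 23391 to 26170 scaled CPM in WT and 14837 to 22413 in the Ahrr libraries. Most of that sum is Lyz2, and the markers did not move together. Lyz2, Csf1r and Cd68 were lower in the Ahrr libraries without overlap. Csf1r stood at 927 to 1052 in WT and 487 to 796 in the Ahrr libraries, and Cd68 at 1189 to 1488 and 983 to 1058. Itgax was higher, at 45.9 to 57.7 in WT and 141 to 210 in the Ahrr libraries. The other macrophage markers, Spi1 among them, overlapped between the groups. The 3 dendritic cell markers found of 6 summed to 56.4 to 67.8 in WT and 69.9 to 91.3 in the Ahrr libraries, mostly from Clec9a. Only Clec9a was higher without overlap. Zbtb46 went the other way, at 5.01 to 6.14 in WT and 4.03 to 4.73 in the Ahrr libraries, and Xcr1 was at or below 0.411 in every library. Few markers of other cells were found: 2 of 8 erythroid and 1 of 6 hepatocyte markers, each list at or below 0.84 in sum, and 1 of 7 neutrophil markers, at or below 2.46. The 3 fibroblast and endothelial markers found of 6 reached 11.1 in sum in WT replicate 2, mostly Pdgfra. No listed mast cell or lymphoid marker was among the genes analysed here. The part of the macrophage and dendritic cell markers in the results below was not tested. In bulk RNA, fewer cells of a type and less RNA per cell cannot be told apart.

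Windows of 30 bases around the annotated start of 10 member genes show how the tract near that start varies within the class. They run from 10 bases before to 20 bases from the start, 5′ to 3′ on the gene's own strand, from RefSeq on GRCm38.p6, and capitals mark each C followed by at least 4 further C or T. The first 6 genes were lower in the Ahrr libraries, Rps6, Rpl38 and Rpl22 did not pass the test, and Rpl22l1 is a paralog of Rpl22.
Rps27, chr3:90213629-90213658, minus strand: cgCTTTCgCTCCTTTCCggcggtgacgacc
Rpl27a, chr7:109519185-109519214, plus strand: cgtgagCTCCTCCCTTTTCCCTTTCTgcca
Rps21, chr2:180257369-180257398, plus strand: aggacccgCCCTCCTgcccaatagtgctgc
Rpl11, chr4:136053374-136053403, minus strand: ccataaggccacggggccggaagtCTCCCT
Rpl37a, chr1:72711250-72711279, plus strand: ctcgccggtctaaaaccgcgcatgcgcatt
Rps15, chr10:80292421-80292450, plus strand: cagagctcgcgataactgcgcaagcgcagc
Rps6, chr4:86857348-86857377, minus strand: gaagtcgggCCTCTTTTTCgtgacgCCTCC
Rpl38, chr11:114668570-114668599, plus strand: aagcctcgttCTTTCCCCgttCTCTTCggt
Rpl22, chr4:152325716-152325745, plus strand: cctgggaaaagcaatagctggccgatcgtt
Rpl22l1, chr3:28805498-28805527, plus strand: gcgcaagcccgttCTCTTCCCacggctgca

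Such a tract, searched on the sense strand only, began within 5 bases of the annotated start in 27 of the 57 ribosomal protein genes that the promoter table held (47.4%). It did so in 21.2% of all 27025 genes of the table and in 23.6% of the 8402 other tested protein-coding genes. Anywhere in the first 41 bases after the start, a window chosen after seeing the data, it occurred in 87.7% of the ribosomal protein genes and in 51.1% of all genes. Annotated starts are not measured in these data and differ between annotations. In the windows shown, a tract lay at or near the RefSeq start of genes that were lower (Rps27, Rpl27a, Rps21) and of genes that did not pass the test (Rps6, Rpl38). Rpl37a and Rps15, which were lower, and Rpl22 had none in this window, and Rpl11 had one only at its far end. The windows of Rpl37a and Rps15 end before the gene starts in the GENCODE annotation (72711290 and 80292453). That of Rpl22 ends only a few bases past its GENCODE start (152325742). Those of Rpl27a, Rpl38 and Rpl22l1 begin well past the GENCODE gene starts (109519147, 114668524 and 28805436). On the minus strand, those of Rps6 and Rpl11 also lie wholly inside the GENCODE genes, which begin at 86857412 and 136053428. Whether transcripts of any of these genes begin with a tract can therefore not be told from these windows.

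As a class, the ribosomal protein genes took a slightly smaller share of the mRNA counts in the Ahrr libraries, and Ahrr replicate 1 was the lowest library. Together the 90 genes held 2.94%, 2.66% and 2.75% of all counts in WT replicates 1 to 3 and 2.08%, 2.75% and 2.71% in Ahrr replicates 1 to 3. Ahrr replicate 1 lay below all other libraries, with a 95% Wilson interval of 2.06% to 2.09% for counting error only, while Ahrr replicates 2 and 3 lay inside the WT range, whose lower end, WT replicate 2, is diluted by ribosomal RNA. The means were 2.79% ± 0.14 in WT and 2.51% ± 0.38 in Ahrr (SD, n = 3 each), a ratio of 0.902, and the ratio was 0.979 without Ahrr replicate 1. Over the TMM-corrected library size, which removes that dilution, the shares were 2.94%, 2.95% and 2.695% in WT and 2.06%, 2.65% and 2.63% in the Ahrr libraries. On that scale all 3 Ahrr libraries lay below all 3 WT libraries, and the ratio was 0.855, or 0.922 without Ahrr replicate 1. This separation depended on the denominator. As a share of protein-coding counts, which also leaves out the ribosomal RNA, Ahrr replicate 2 (2.800%) lay just above WT replicate 3 (2.799%). The ratio was then 0.876, or 0.951 without Ahrr replicate 1. Of all counts, both subunits had about the same ratio, 0.903 for the small and 0.897 for the large subunit. Large subunit counts were 1.32 to 1.33 times small subunit counts in WT and 1.29 to 1.33 times in the Ahrr libraries, so the balance between the subunits overlapped between the groups.

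**Figure D1:**
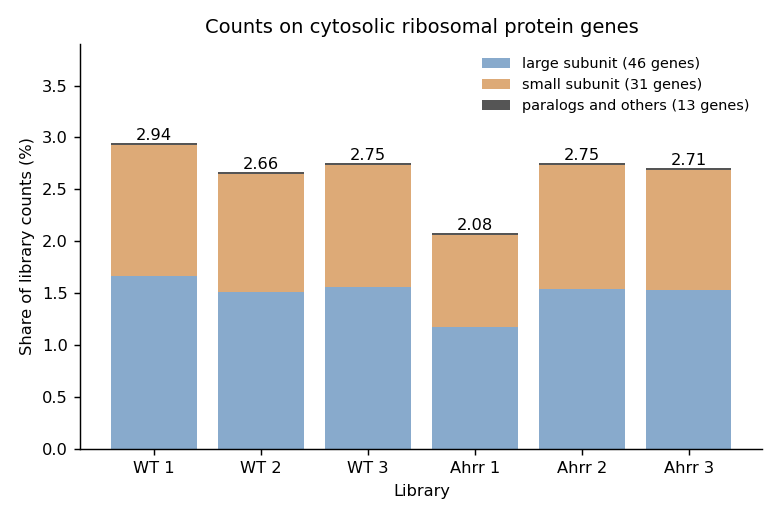
Share of each library's counts (y axis, percent) on ribosomal protein genes, stacked by subunit, for the 3 WT and 3 Ahrr libraries (x axis), with the sum printed above each bar. Ahrr replicate 1 is at 2.08% and the other 5 libraries are between 2.66% and 2.94%, with WT replicate 2 diluted by ribosomal RNA.

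In the median over genes, on the same TMM-corrected scale, the 3 Ahrr libraries were below the 3 WT libraries. Ahrr replicate 2 lay only just below WT replicate 3. The median of the 80 tested members, as a log2 difference from the WT mean, was -0.46 in Ahrr replicate 1, -0.10 in Ahrr replicate 2 and -0.13 in Ahrr replicate 3. In WT it was 0.04, 0.04 and -0.09, and over all tested genes it was within 0.01 of 0 in every library. In Ahrr replicate 1, 76 of the 80 members lay below all 3 WT libraries, against 38.3% of all tested genes. The same held for 45 members in Ahrr replicate 2 and 48 in Ahrr replicate 3, against 36.8% and 36.2% of all tested genes. Of the 80 members, 75 had their lowest value of the 6 libraries in Ahrr replicate 1. The share of counts from mitochondrial genes in that library, 2.31%, was inside the WT range of 1.81% to 2.47%.

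**Figure D2:**
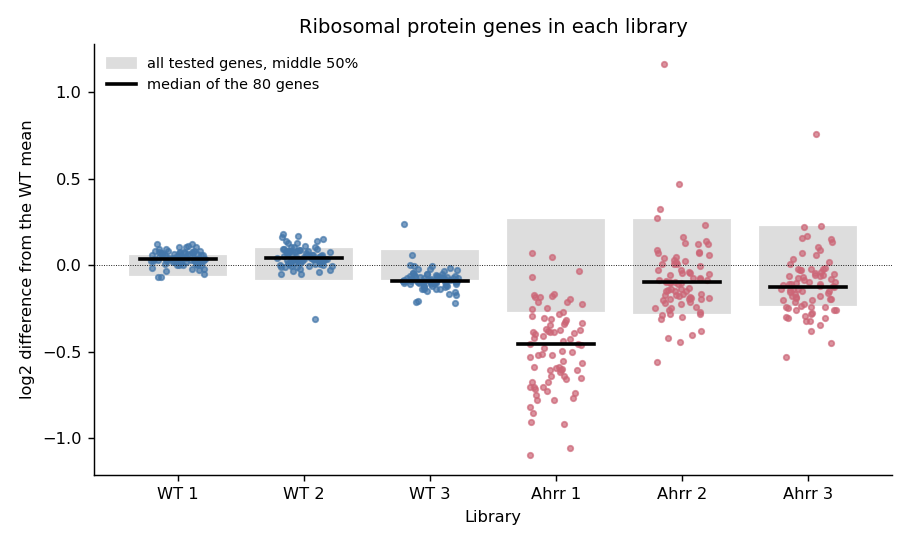
Log2 difference of each of the 80 tested members from its WT mean (y axis) in each library (x axis), with black lines for the members' medians and grey boxes for the middle 50% of all tested genes. The cloud of Ahrr replicate 1, with a median of -0.46, lies lowest, and the medians of Ahrr replicates 2 and 3 are at -0.10 and -0.13.

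Tested gene by gene, 9 ribosomal protein genes were lower in the Ahrr group and 0 were higher. The 80 tested members (76 subunit genes, Rps27l, Rpl22l1, Rpl7l1 and Rps19bp1) are those that passed edgeR's filter on low counts. The 9 lower genes are 11.25% of the 80, beside 9.95% of all 11408 tested genes called lower and 9.62% called higher (edgeR quasi-likelihood test, adjusted p under 0.05). The share called lower in this test is thus near the background. By subunit, 4 of 31 tested small subunit genes (among them Rps27, Rps15 and Rps21) and 5 of 45 large subunit genes (among them Rpl36, Rpl37a, Rpl11 and Rpl27a) were lower. At an unadjusted p under 0.05, 27 members were lower and 2 higher, beside 17.4% and 18.4% of all tested genes. All 3 Ahrr libraries lay below all 3 WT libraries in 39 of the 80 members, beside 19.6% of all tested genes, and lay above them in 1, Rpl7l1, beside 19.2%.

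The direction was shared by far more members than the test called. The fitted log2 fold change was below 0 in 73 of 80 members, beside 49.1% of all tested genes. Its median was -0.23 for the members, -0.25 for the small and -0.23 for the large subunit, and 0.01 for all tested genes. Without Ahrr replicate 1 the median over the members was -0.12, and 62 of 81 were below 0. The members were measured in the same libraries and are not replicates of the comparison. The subunit genes that were tested spanned a narrow range of fold changes, from -0.61 for Rpl36 to 0.06 for Rpl10a.

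**Figure D3:**
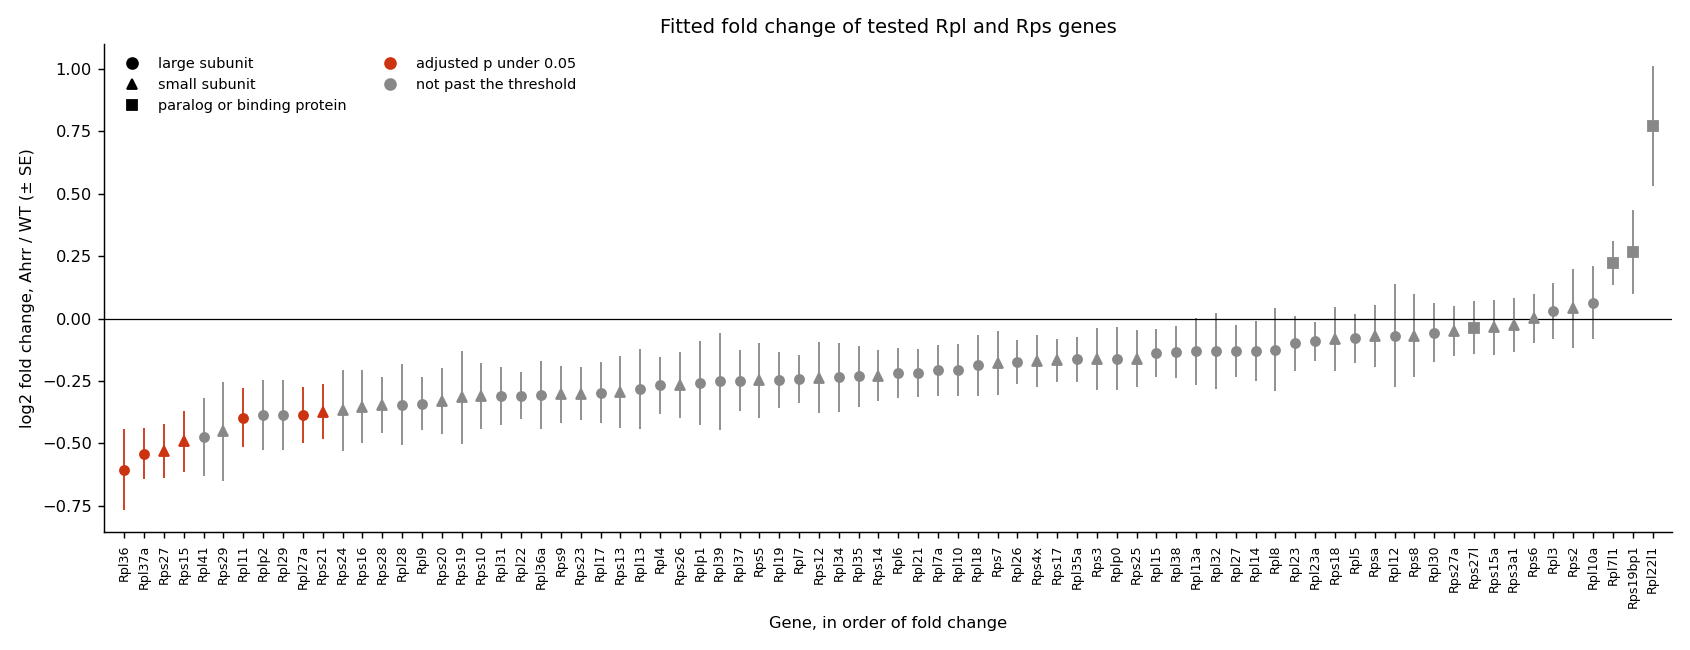
Fitted log2 fold change, Ahrr over WT, with its SE (y axis) for the tested members reported by name, in order (x axis), by subunit (marker) and by edgeR call (red). The plotted genes past the threshold are all below 0, and Rpl22l1, at 0.77 and not past the threshold, is the highest.

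The number of calls depended on the libraries in the fit. With 1 library left out, 1 member was lower without WT replicate 1, 2 without WT replicate 2 and 3 without WT replicate 3. It was 3 without Ahrr replicate 2 and 4 without Ahrr replicate 3. The shares of all tested genes called lower in these 5 fits were 3.21%, 4.43%, 5.18%, 4.21% and 5.26%, in the same order. Without Ahrr replicate 1, the shallowest library, 14 of 81 tested members were lower, among them all 9, and 2 were higher (Rpl22l1 and Rpl7l1), beside 16.6% and 16.0% of all tested genes.

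The lower genes included Rpl37a, a zinc-binding protein of the large subunit, which passed the threshold under all 19 other processing settings. Rpl37a (GRCm38, chromosome 1, 72711290 to 72713813, plus strand) stood at 299, 298 and 277 scaled CPM in WT and at 178, 197 and 224 in the Ahrr libraries. Every Ahrr library was below every WT library, and the fitted log2 change was -0.54 (SE 0.10, adjusted p = 0.00874 by edgeR).

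Rps27 (chromosome 3, 90212522 to 90213651, minus strand), another zinc-binding protein, on the small subunit, stood at 365, 410 and 325 scaled CPM in WT and at 239, 268 and 253 in the Ahrr libraries. The groups did not overlap, the 3 Ahrr values were close to each other, and the fitted log2 change was -0.53 (SE 0.11, adjusted p = 0.0122 by edgeR). Rpl36 (chromosome 17, 56613416 to 56614243, plus strand), of the large subunit, had the largest fall, from 226, 235 and 205 scaled CPM in WT to 103, 168 and 162. Ahrr replicate 1 was far below the other 2 Ahrr libraries, and the fitted log2 change was -0.61 (SE 0.16, adjusted p = 0.0319 by edgeR), or -0.43 (adjusted p = 0.00375) without that library.

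Rps15 (chromosome 10, 80292453 to 80294114, plus strand), of the head of the small subunit, stood at 529, 547 and 488 scaled CPM in WT and at 312, 389 and 410 in the Ahrr libraries, and its fitted log2 change was -0.49 (SE 0.12, adjusted p = 0.0244 by edgeR). Rpl11, which binds the p53 regulator Mdm2 when ribosome assembly is disturbed, stood at 299, 302 and 276 in WT and at 183, 235 and 246 in the Ahrr libraries (log2 fold change -0.40, SE 0.12, adjusted p = 0.0469 by edgeR). In both genes the groups did not overlap and Ahrr replicate 1 was lowest. Of the 19 other settings, the call was lost under 2 for Rps27, 5 for Rpl36, 6 for Rps15 and 11 for Rpl11.

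Rpl27a and Rps21 were also lower and are named after their values were seen, since the naming rule takes 6. Rpl27a had a fitted log2 change of -0.39 (adjusted p = 0.0412 by edgeR) and Rps21 one of -0.37 (adjusted p = 0.0438 by edgeR), both without overlap between the groups. Their calls were lost under 7 and 11 of the 19 other settings.

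Members that are well known for roles outside or at the edge of the ribosome did not pass the test, apart from Rpl11. Rps6, the protein that S6 kinase phosphorylates when mTOR is active, stood at 270, 284 and 267 scaled CPM in WT and at 244, 282 and 294 in the Ahrr libraries. The groups overlapped, and the log2 fold change was 0.00 (SE 0.10, adjusted p = 0.998 by edgeR). Rpl5, which joins Rpl11 and the 5S ribosomal RNA, was at -0.08 (adjusted p = 0.604 by edgeR), and Rpsa, also known as the laminin receptor, at -0.07 (adjusted p = 0.729 by edgeR). Rps27a, made as a fusion with ubiquitin, was at -0.05 (adjusted p = 0.761 by edgeR). Rpl10a and Rpl38, both known for effects on the translation of particular mRNAs, were at 0.06 (adjusted p = 0.791 by edgeR) and -0.13 (adjusted p = 0.387 by edgeR). Rps19, the gene most often mutated in Diamond-Blackfan anaemia, was at 303, 311 and 262 scaled CPM in WT and at 161, 285 and 253 in the Ahrr libraries. Ahrr replicate 2 lay inside the WT range, and the fitted log2 change was -0.32 (SE 0.19, adjusted p = 0.256 by edgeR).

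The stalk proteins recruit the elongation factors to the large subunit. Rplp0, the base of the stalk, was the most abundant member in scaled CPM, at 1388, 1291 and 1277 in WT and 1008, 1228 and 1301 in the Ahrr libraries, and the groups overlapped (log2 fold change -0.16, adjusted p = 0.389 by edgeR). Its partners Rplp1 and Rplp2 had log2 fold changes of -0.26 (adjusted p = 0.298 by edgeR) and -0.39 (adjusted p = 0.0809 by edgeR). Per kilobase of transcript, a scale on which genes can be compared, Rplp1 led the large subunit with 1655 scaled CPM per kb in WT, followed by Rpl32 with 1081. Rps27, Rps9 and Rps12 stood at 1062, 1009 and 999.9 scaled CPM per kb in WT and at 735, 817 and 847 in Ahrr. Averaged over all 6 libraries these were the highest 3 of the small subunit, while in WT alone Rps15, at 1042, stood above Rps9 and Rps12. Rps9 and Rps12 had log2 fold changes of -0.30 (adjusted p = 0.0942 by edgeR) and -0.24 (adjusted p = 0.269 by edgeR).

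Of the 3 tested paralogs, Rpl22l1 and Rpl7l1 had fold changes above 0 and Rps27l was at -0.04. Among the 76 tested subunit genes, 4 were also above 0, at most 0.06 (Rpl10a). Rpl22l1 (chromosome 3, 28805436 to 28807424, plus strand) encodes a close relative of Rpl22, and the Rpl22 protein is known to hold its expression down. Rpl22 stood at 252, 275 and 250 scaled CPM in WT and at 189, 226 and 211 in the Ahrr libraries. All 3 Ahrr libraries were lower, but the fold change just missed the threshold (log2 fold change -0.31, SE 0.09, adjusted p = 0.0507 by edgeR). Rpl22l1 stood at 22.9, 17.4 and 25.5 scaled CPM in WT and at 22.3, 48.7 and 36.7 in the Ahrr libraries. Ahrr replicates 2 and 3 were above all WT libraries and Ahrr replicate 1 was inside the WT range, and the log2 fold change was 0.77 (SE 0.24, adjusted p = 0.0523 by edgeR). Without Ahrr replicate 1 it was 0.96 with an edgeR adjusted p of 0.0029, and Rpl22 then had a fitted log2 change of -0.25 (adjusted p = 0.0324). As a percentage of the Rpl22 level, Rpl22l1 was 9.07, 6.33 and 10.2 in WT and 11.8, 21.5 and 17.4 in the Ahrr libraries, without overlap. Exons of Rpl22l1 overlap Gm33051 on the opposite strand, so its reads could be shared with it.

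Rps27l, a p53 target that differs from Rps27 by a few residues, stood at 60.2, 64.6 and 58.8 scaled CPM in WT and at 51.5, 66.5 and 58.4 in the Ahrr libraries. The groups overlapped, with a log2 fold change of -0.04 (adjusted p = 0.838 by edgeR). As a percentage of the Rps27 level, Rps27l was 16.5, 15.8 and 18.1 in WT and 21.5, 24.8 and 23.1 in the Ahrr libraries, without overlap. Rps27 was itself lower without overlap, so this ratio is no separate result.

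Rpl7l1, a paralog of Rpl7 with a role in ribosome assembly, stood at 71.3, 73.2 and 76.8 scaled CPM in WT and at 77.4, 92.3 and 86.1 in the Ahrr libraries. All 3 Ahrr libraries were higher, Ahrr replicate 1 by little, and the log2 fold change was 0.22 (SE 0.09, adjusted p = 0.106 by edgeR). Rpl7 was at -0.24 (adjusted p = 0.105 by edgeR). Rps19bp1, the binding protein, had a fitted log2 change of 0.27 (SE 0.17, adjusted p = 0.283 by edgeR). These ratios between paralogs were not tested.

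**Figure D4:**
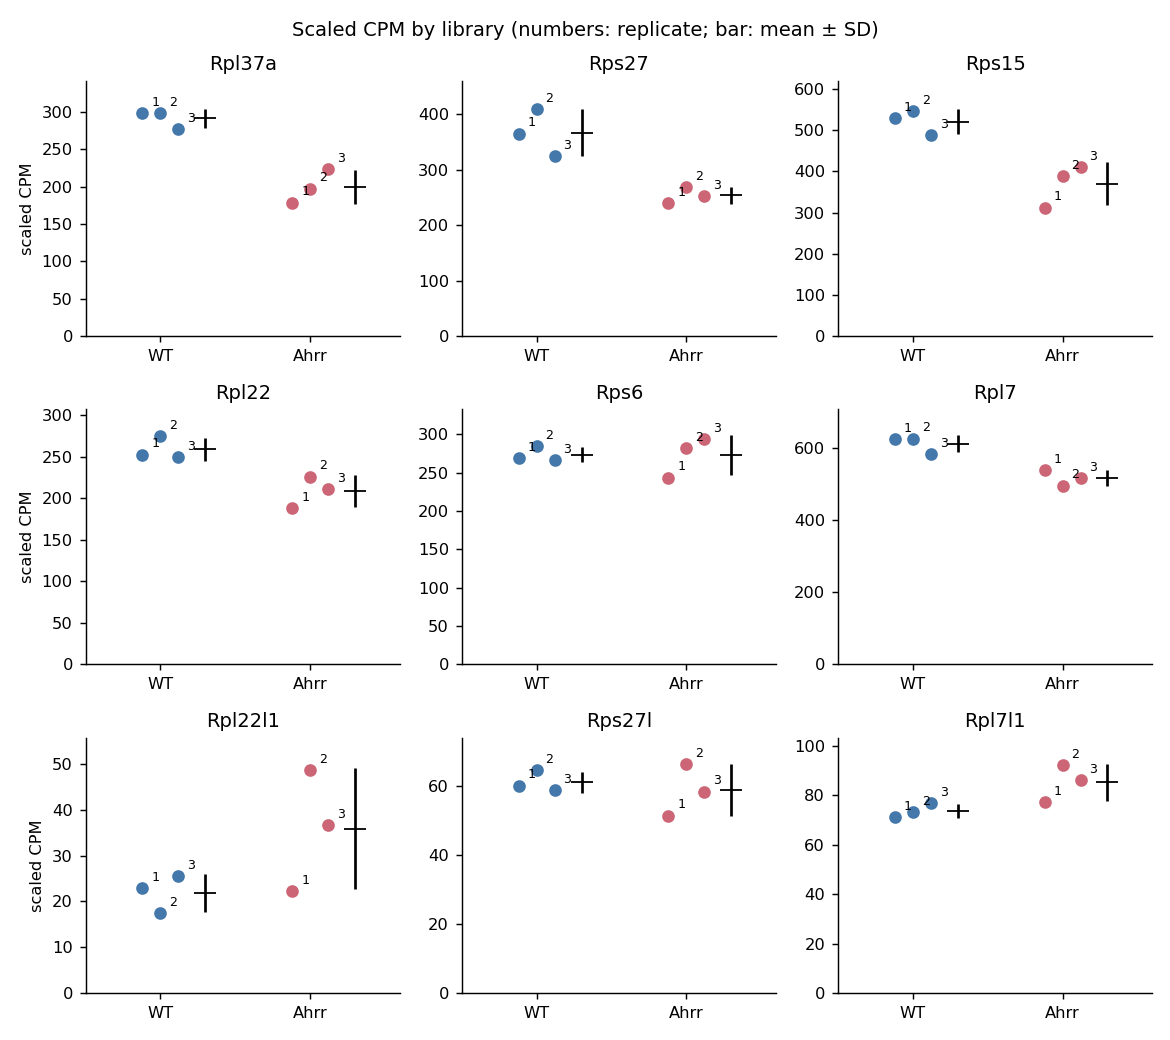
Scaled CPM (y axis, from 0) of 9 members in the WT and Ahrr libraries (x axis), with the replicate number beside each point and the mean ± SD (n = 3) as a black bar. Rpl37a, Rps27, Rps15, Rpl22 and Rpl7 show no overlap between the groups, and Rpl22l1 in Ahrr replicates 2 and 3, at 48.7 and 36.7, lies above WT.

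The remaining 10 members were too low to test. They are Rpl24, Rpl3l, Rpl36al, Rpl39l, Rps27rt and the 5 genes with pseudogene-type symbols, and no library held more than 1.76 scaled CPM of any of them, the highest being Rps27rt in WT replicate 2. Rpl24 encodes a large subunit protein, and its exons overlap those of Gm28037 on the same strand. Whether the overlap bears on its low count was not tested. Rpl13a, at 20.9 ± 2.9 scaled CPM in WT and 18.6 ± 2.2 in Ahrr (SD, n = 3 each), overlaps Gm45713 in the same way. Copies with nearly the same sequence can take reads from a gene. The table held 83 non-coding rows with ribosomal protein symbols, with at most 0.0138% of the counts of a library, and 46 of the 77 subunit genes had a paralog or such a row. Among the tested subunit genes with such a copy, 5 of 46 were lower, and among those without, 4 of 30 (among them Rpl11, Rpl37a and Rps21), with medians of -0.23 and -0.24. Rps4l, listed as a pseudogene, stayed near 2% of Rps4x (1.96 ± 0.17 in WT and 1.95 ± 0.14 in Ahrr, SD, n = 3 each).

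Ribosomal protein transcripts are short, with a median of 740 bases against 2719.5 for all tested genes. Across all tested genes, which are not independent replicates, the fold change had a Spearman correlation of 0.12 with transcript length and -0.28 with GC content. The difference of Ahrr replicate 1 from the mean of the other Ahrr libraries had one of 0.19 with length and -0.34 with GC content. With offsets that level the trend with length in each library, the members' median was -0.13, and 63 of 80 members were below 0. Of the 80, 6 were called lower (among them Rpl36, Rpl37a, Rps27, Rps15 and Rpl27a) and 2 higher (Rpl22l1 and Rpl7l1). The shares of all tested genes were 10.3% lower and 9.58% higher. With offsets for GC content the members' median was -0.19, and 71 of 80 were below 0. Then 9 members were called lower, 5 of them among the first 9, and 0 higher, beside 8.80% and 8.88% of all tested genes.

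Of the ribosomal proteins that the symbol rule misses, Fau, whose product is cut from a ubiquitin-like fusion, was lower. It stood at 469, 440 and 428 scaled CPM in WT and at 255, 320 and 372 in the Ahrr libraries, without overlap (log2 fold change -0.50, SE 0.14, adjusted p = 0.0351 by edgeR). Rack1, a scaffold on the small subunit, was at -0.07 (adjusted p = 0.741 by edgeR).

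Among ribosome biogenesis factors, 10 of 47 tested genes were higher and 0 lower, beside 9.62% and 9.95% of all tested genes. The median log2 fold change over the list was 0.34, and 4 of the 47 were below 0. Without Ahrr replicate 1, 32 of the 47 were higher and 0 lower, beside 16.0% and 16.6% of all tested genes. Nop58, a core protein of small nucleolar ribonucleoproteins, stood at 20.1, 21.2 and 22.5 scaled CPM in WT and at 26.2, 53.4 and 40.5 in the Ahrr libraries, and Ahrr replicate 1 was again closest to WT (log2 fold change 0.98, SE 0.21, adjusted p = 0.0148 by edgeR). Dkc1, the pseudouridine synthase of ribosomal RNA, had a fitted log2 change of 0.87 (adjusted p = 0.00519 by edgeR), and Tsr1, an assembly factor of the small subunit, one of 0.76 (adjusted p = 0.0183 by edgeR). Of 33 tested initiation factors, 9 were higher and 1 lower, beside the same 9.62% and 9.95%, with a median of 0.19 and 12 of the 33 below 0. With Ahrr replicate 1 left out, 14 were higher and 1 lower, beside 16.0% and 16.6%. The largest rises were those of Eif2s1 (0.60, adjusted p = 0.00479 by edgeR), Eif2s2 (0.55, adjusted p = 0.0228 by edgeR) and Eif4g2 (0.54, adjusted p = 0.0185 by edgeR), and the lower gene was Eif3k (-0.33, adjusted p = 0.038 by edgeR). Initiation factors known for the tract, Eif3f and Eif3h among them, were counted in the next list and not here. All of those had fitted log2 fold changes below 0, so the counts depend on how the lists were split.

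Of 17 tested elongation factors and other mRNAs known for the tract, 2 were lower and 0 higher, with a median of -0.12. The share lower is near the 9.95% of all tested genes, and both are subunits of initiation factor 3, Eif3f (-0.45, adjusted p = 0.0146 by edgeR) and Eif3h (-0.30, adjusted p = 0.037 by edgeR). With Ahrr replicate 1 left out, 5 of the 17 were lower and 1 higher, beside 16.6% and 16.0%. The ribosome of mitochondria, which is built from other genes, showed no common direction, with a median of 0.03. Of its 77 tested genes, 2 were higher (Mrpl1 and Mrpl50) and 2 lower (Mrps15 and Mrpl14), 2.60% each way, beside 9.62% and 9.95% of all tested genes. Leaving out Ahrr replicate 1 gave 8 higher and 3 lower of the 77, beside 16.0% and 16.6%. Of 15 tested regulators, 3 were higher and 0 lower, beside 9.62% and 9.95% of all tested genes. Without Ahrr replicate 1, 5 of the 15 were higher and 1 lower, beside 16.0% and 16.6%. Myc, a transcription factor known to drive ribosome synthesis, stood at 26.8, 19.0 and 18.7 scaled CPM in WT and at 71.8, 107 and 160 in the Ahrr libraries. Every Ahrr library was far above WT (log2 fold change 2.37, SE 0.27, adjusted p = 0.00184 by edgeR). Larp4, a binding protein of poly(A) tails, was at 0.53 (adjusted p = 0.0064 by edgeR), and Rps6kb1, the S6 kinase, at 0.46 (adjusted p = 0.0197 by edgeR). Differences between these lists and the ribosomal proteins were not tested.

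**Figure D5:**
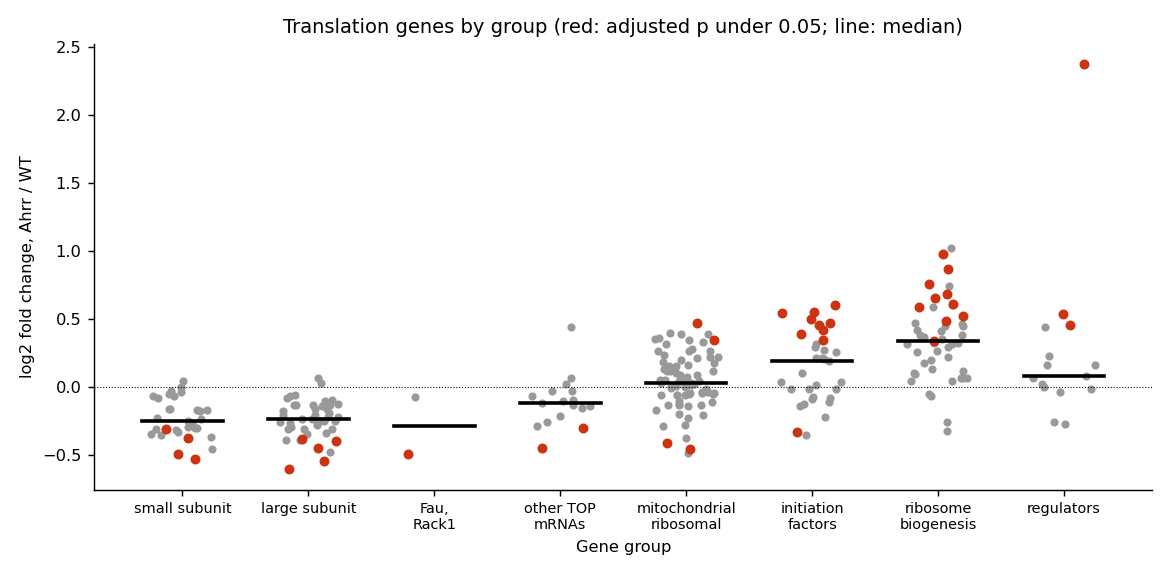
Fitted log2 fold change, Ahrr over WT (y axis), of each tested gene by group (x axis), in red where the edgeR adjusted p is under 0.05, with the group median as a line. The medians are -0.25 and -0.23 for the ribosomal subunits and 0.34 for ribosome biogenesis factors.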

How the data were processed

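RNA libraries of 6 macrophage cultures were read as single 75 bp reads, per the labels' protocols. The submitters' processing notes name CASAVA 1.8.2, fastp 0.20.0, STAR 2.7.10b, SAMtools 1.16.1, R 4.3.1, DESeq2 1.40.2 and the mm10 build. The counting program, annotation and use of strand are not given in the sources used here. The authors deposited raw counts per gene, without identifiers, for 53465 rows. The authors also deposited a normalized signal, counts divided by size factors, with identifiers for 16111 genes. Divided by the smallest value of its library, each signal gave whole reads (100% of values, within 0.01), and the recovered counts equal the raw rows with at least 10 counts in all. The other rows hold 0.0232% to 0.0511% of a library and stayed out of the tests.

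Counts were tested with edgeR 4.0.16 in R 4.3.3 (quasi-likelihood test, TMM factors, filterByExpr, genotype only, all 6 libraries), two-sided, with Benjamini-Hochberg adjustment over 11408 genes and a threshold of 0.05. The biological coefficient of variation was 13.0%. Coordinates, lengths and GC content are from GENCODE M21 on GRCm38, which matched 16094 genes, with the shortest principal transcript per gene. In data simulated from these libraries, 88% of genes changed 2-fold and 45% of those changed 1.5-fold were recovered over 11408 genes. Counts were drawn independently for each gene. Nearly all member changes were smaller than 1.5-fold (median log2 fold change -0.23), so these rates do not give the recovery for the members. Of 49 listed ribosome biogenesis factors, 48 were in the table and 47 tested.

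The members, lists and tests were chosen with earlier results of these data known. Genes are named by a rule: the 6 largest rises and falls among called members that average 50 counts or more, the 3 highest per kilobase in each subunit, paralog pairs, stalk proteins, 8 members of known roles, Ahrr, and up to 3 rises and falls per list. Counts of calls also name their genes. Alternatives were other scalings, filters and tools (DESeq2 1.42.0, limma-voom in limma 3.58.1), a replicate block, GC and length offsets, thinning, and each library left out. Intervals cover counting error only. Some genes are counted in totals but not reported by name here.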

Additional observations from a re-analysis of the deposited data

How the results depend on the processing

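The members' median log2 fold change stayed below 0 in all settings, from -0.30 without Ahrr replicate 3 to -0.065 with Ahrr replicate 1 left out and length offsets together, a setting added after seeing the data. The test as described called 9 members lower and 0 higher. Without a filter on low counts there were 18 calls among 90 members (17 lower, 1 higher), beside 5.89% of all tested genes lower and 5.82% higher. With DESeq2 there were 17 among 80 (16 lower, 1 higher), beside 9.002% and 8.503%. With limma-voom there were 15 among 80 (14 lower, 1 higher), beside 12.53% and 11.57%. In each of these settings the members' share called lower was above that of all tested genes. Length offsets gave 6 lower and 2 higher, beside 10.3% and 9.58% of all tested genes. Thinning to the smallest total gave 3 calls, all 3 lower, beside 6.15% of all tested genes called lower. The added setting gave 7 lower and 4 higher of 81 members, beside 16.7% and 16.0% of all tested genes. In it, 53 of the 81 had a fold change below 0. Leaving out 1 library gave 1 to 16 calls, 1 to 14 lower and 0 to 2 higher. The cause of these shifts was not tested, except that thinning leaves fewer counts.

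Replicate numbers occur in both groups, but same-numbered libraries did not deviate together (correlations -0.17, 0.07 and 0.13), so they do not pair. With the replicate block 4 of 80 members were called, all 4 lower, beside 6.35% of all tested genes called lower. With the replicate block and GC offsets 5 were called, all 5 lower, beside 5.30% of all tested genes called lower. With the replicate block and length offsets 2 were called, 2 of them lower, beside 7.18%.

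For the 29 named members tested, 495 results over 19 settings kept their call, 33 lost it, 23 gained it and 0 reversed. The summed share ratio stayed between 0.855 and 0.979. Depth limits Ahrr replicate 1 most, where 3 counts are 0.844 CPM.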
